A study of Homo sapiens with 9 samples.

Results

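The mitochondrial ribosomal proteins examined here are the protein-coding genes whose symbol starts with MRPL or MRPS followed by a digit. The rule found 78 such genes among the 78899 Ensembl gene IDs listed for each library, after 80 pseudogenes and 7 antisense or divergent transcripts of the same name stem were left out. The RNA was extracted from HaCaT, an immortalized line of human keratinocytes that is in wide use and was grown here in low-calcium medium. There were 3 libraries of a sorted subpopulation named BD, 3 of a sorted subpopulation named NBD and 3 of the cell line itself, named control. Cells of the subpopulations were sorted by fluorescence to compare states linked to progenitors, the gates and both names are left unexplained in the labels, and no treatment or genetic change is stated for any group. All 3 groups thus come from 1 cell line. Stranded, rRNA-depleted libraries were read from both ends, and the values are read counts per gene. RNA was extracted with either of a pair of kits, and which library had which kit is not stated.

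Mitochondria keep a small genome that codes for core subunits of the respiratory chain and ATP synthase, and they translate its mRNAs on ribosomes of their own. The RNA of that ribosome is transcribed in the mitochondrion, whereas its proteins are encoded in the nucleus, made in the cytoplasm and imported. MRPL proteins belong to the large subunit, which forms peptide bonds, and MRPS proteins to the small subunit, which reads the mRNA, with a few exceptions of naming. Many have a counterpart in bacterial ribosomes, and others are found only in mitochondria. Keratinocytes of the basal layer renew the epidermis, and mitochondrial translation supplies the complexes that respiring cells use.

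Of the 78 genes, 51 code for proteins of the large subunit, 30 with and 21 without a bacterial counterpart, and 26 for proteins of the small subunit, 16 with and 10 without one. The large subunit count includes MRPS30 and MRPS18A, whose proteins sit there in spite of their symbols. The remaining gene, MRPS36, codes for a protein now known as a subunit of the alpha-ketoglutarate dehydrogenase complex. The genes lie on 21 chromosomes, so they do not form a cluster.

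Some short motifs were more frequent in their promoters than in all promoters, each found in a minority of them. The RefSeq promoter table (GRCh38.p14, 250 bases before to 50 after each start) held 69 of the 78. The letters AAGATGGCG, a core of sites bound by the zinc-finger factor YY1, occurred on either strand in 13 of the 69, or 18.8%, against 434 of 15843 protein-coding promoters, or 2.74%. They are shown because, of the motifs searched, they had the largest ratio between the promoters of the mitochondrial ribosomal protein genes and all promoters. Capitals mark the motif, or its reverse complement, and each sequence runs 5′ to 3′ on the gene's strand.
MRPL22 (chr5:154941098-154941122, + strand): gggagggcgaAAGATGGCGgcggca
MRPL42 (chr12:93467512-93467540, + strand): ggattgaaacAAGATGGCGggttcgtggt
MRPL46 (chr15:88467362-88467390, − strand): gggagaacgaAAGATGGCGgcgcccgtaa
MRPL50 (chr9:101398577-101398605, − strand): gatctcatcgAAGATGGCGgcgcgatctg
MRPS10 (chr6:42217834-42217862, − strand): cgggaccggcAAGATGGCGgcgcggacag
MRPS18A (chr6:43687764-43687792, − strand): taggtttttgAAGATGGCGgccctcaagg
MRPS18B (chr6:30617853-30617881, + strand): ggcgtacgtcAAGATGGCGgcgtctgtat
MRPS24 (chr7:43869480-43869508, − strand): cgcttggcccAAGATGGCGgcctccgtgt
MRPS30 (chr5:44808950-44808978, + strand): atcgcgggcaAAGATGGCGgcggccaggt
MRPL36 (chr5:1799855-1799883, − strand): ccccccccgcCGCCATCTTccttcctggc

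The 13 promoters held 14 matches, of which 12 lay on the gene's own strand and 10 after its start. Among the 443 matches in all promoters, 341 lay on the gene's strand and 303 after its start. The motif contains an ATG, so a match after the start can hold a start codon. MRPL36 and MRPL32 had the opposite orientation, and MRPL52 had a pair of matches. The ETS core CCGGAAGT, read by factors such as GABP, occurred in 11 of the 69 promoters, or 15.9%, against 6.19% of all promoters. The NRF1 core, a pair of GCGC blocks with AN between them, occurred in 11.6%, against 8.58%, the SP1 core GGGCGGGG in 37.7%, against 31.6%, and CCAAT in 28.99%, against 36.4%. TATAAA occurred in 2.90%, against 9.63%, and the E-box CACGTG in 8.70%, against 8.88%. All motifs were searched on both strands, and overlap between motifs was allowed. A match describes letters only.

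Many of the genes also start back to back with another gene. By GENCODE 29, 23 of the 78, or 29.5%, had a protein-coding neighbour on the opposite strand that started within 1000 bases upstream, against 1491 of 19850 protein-coding genes, or 7.51%. Several neighbours act in mitochondria too, among them TWNK, the mitochondrial DNA helicase, beside MRPL43, SARS2, a mitochondrial seryl-tRNA synthetase, beside MRPS12, and NDUFB5, a subunit of complex I, beside MRPL47. MRPS11 of the small subunit and MRPL46 of the large subunit start back to back with each other, with 320 bases between their RefSeq starts. GENCODE 29 places the outermost start of MRPS11 further upstream, 34 bases from that of MRPL46, so the stretch printed is upstream of the RefSeq start but lies within the gene as GENCODE bounds it. The 250 bases before the RefSeq start of MRPS11 are shown because 181 of them also lie in the promoter window of MRPL46, on the other strand.
MRPS11 (chr15:88467458-88467707, + strand): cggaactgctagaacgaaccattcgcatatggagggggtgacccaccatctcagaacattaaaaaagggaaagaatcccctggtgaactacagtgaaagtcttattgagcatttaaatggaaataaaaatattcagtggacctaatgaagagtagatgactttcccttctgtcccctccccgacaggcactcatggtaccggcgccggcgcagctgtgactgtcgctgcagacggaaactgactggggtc
None of the 7 motifs searched occurs in this stretch, hence no capitals.

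The libraries held 17128797 to 29512856 counts each, and levels below are CPM after TMM normalisation. Control replicates 1 and 2 stood apart from control replicate 3 and from the 6 sorted libraries, and results against control are therefore given with and without control replicate 3. Control replicates 1 and 2 were also the shallowest libraries, with 18054999 and 17128797 counts, and the part of depth was not tested. The labels do not say whether the 3 replicates of a group were grown apart, and p-values therefore describe a spread between samples that may be technical. All 12 keratinocyte markers were above 27 CPM in each library. KRT15 was at 27.1 and 27.3 CPM in control replicates 1 and 2, against 285 to 446 CPM in the other 7 libraries. HLA-DRA of the leukocyte list and CDH5 of the endothelial list were likewise lower in these 2 libraries, at 0 and 0.0561 CPM and at 1.07 and 0.785 CPM, than in the other 7, at 4.203 to 18.7 CPM and 5.92 to 18.8 CPM. Other markers went the other way. KRT5 was at 1012 and 1241.5 CPM in control replicates 1 and 2, against 323 to 720 CPM in the other 7. KRT6A, DSP, ITGA6 and COL17A1 of the keratinocyte list and VWF of the endothelial list were also higher in these 2 libraries. The keratinocyte list summed to 5183 and 5689 CPM there, against 3135 to 4091 CPM in the other 7. Of markers of other cell types, 5 of 9 for fibroblasts, 5 of 7 for melanocytes, 6 of 8 for leukocytes and 4 of 6 for endothelium stayed under 1 CPM in each library. Their summed levels were 4.95 to 5.79 CPM in BD, 3.30 to 9.76 CPM in NBD and 1.69 to 5.39 CPM in control for fibroblast markers, and 8.93 to 17.9, 8.93 to 25.7 and 0.729 to 21.8 CPM in the same groups for leukocyte markers. For endothelial markers they were 11.9 to 19.0, 6.74 to 16.4 and 1.85 to 16.8 CPM, and for melanocyte markers 2.85 to 4.48, 3.15 to 5.63 and 3.93 to 4.82 CPM. THY1 of the fibroblast list and TYROBP of the leukocyte list were at 0 in every library. The part of these markers in the results below was not tested.

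All but 1 of the 78 genes had enough counts to be tested. MRPL53, a large subunit protein, had 0 to 3 counts per library. The 78 genes took 0.418%, 0.508% and 0.434% of all counts in the BD libraries, 0.335%, 0.372% and 0.411% in the NBD libraries and 0.451%, 0.487% and 0.424% in the control libraries. Wilson 95% intervals spanned at most 0.00659 percentage points and cover counting error only. The share averaged 0.453 ± 0.0479% in BD, 0.373 ± 0.0379% in NBD and 0.454 ± 0.0317% in control (SD, n = 3 each). BD shares all lay above NBD shares, but after TMM normalisation the summed levels overlapped, at 4023, 5137 and 4329 CPM in BD, against 3269, 3978 and 4769 CPM in NBD. Mitochondrial rRNA, which is part of the total, took 17.3 to 22.3% of counts in BD and 26.8 to 28.9% in NBD.

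Levels differed widely between members. The mean over libraries was under 10 CPM for 7 of the genes, between 10 and 100 CPM for 65 and above 100 CPM for 6, with a median of 49.8 CPM. Their transcripts are short, with a median length of 1137 bases against 2574.5 bases for tested protein-coding genes, so genes were compared per kilobase of transcript. MRPL51, a large subunit protein of mitochondria only, was highest at 171 CPM per kilobase (161 in BD, 149 in NBD and 202 in control). MRPL3, a large subunit protein near the peptidyl transferase centre, followed at 142, and MRPL49 at 140 CPM per kilobase. MRPS27, an RNA-binding protein of the small subunit, came next at 105 and MRPL18 at 101 CPM per kilobase. These levels use the median length of a gene's coding transcripts, and the order depends on it. Per kilobase of all exon bases of the gene, a length chosen after seeing the data, MRPL3 led at 125 and MRPL18 followed at 101, while MRPL51 had 60.8, MRPS27 40.6 and MRPL49 33.2 CPM per kilobase. At the low end stood MRPS17 at 4.53, MRPS24 at 2.34, MRPL38 at 1.23, MRPS6 at 0.743 and MRPL53 at 0.04 CPM per kilobase.

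Where exons of genes overlap on the same strand, counts depend on a counting rule that the sources do not state. More than 20% of exon bases were shared with another gene on the same strand in 8 of the 78 genes. Of the 10 genes lowest per kilobase, 5 were of this kind (MRPS6, MRPS24, MRPS17, MRPL12 and MRPL46), against 3 of the other 68. MRPL12, a stalk protein that also binds the mitochondrial RNA polymerase, shared 68.2% of its exon bases and averaged 9.49 ± 1.59 CPM in BD, 8.96 ± 1.56 CPM in NBD and 6.49 ± 1.198 CPM in control. MRPS24 shared 77.0% with a readthrough gene, itself at 0.0786 CPM. Levels of these genes are uncertain.

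**Figure D1:**
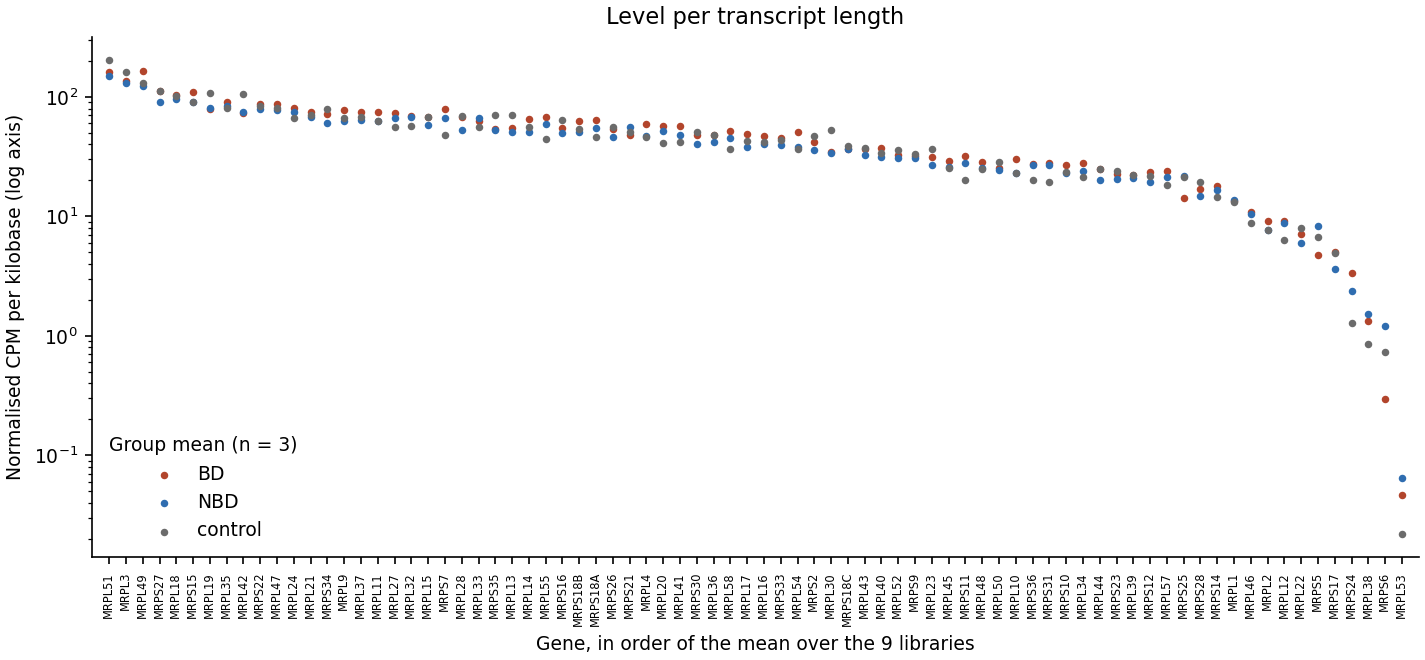
Mean normalised CPM per kilobase of transcript (log axis) of the 78 genes in BD, NBD and control libraries (n = 3 each), ordered by the mean over the 9 libraries. By the median coding transcript length MRPL51 leads at 171 CPM per kilobase and MRPL53 closes the order at 0.04.

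The mRNAs of proteins at functional centres of the ribosome are given next. MRPL11, which with MRPL10 and MRPL12 forms the stalk that recruits translation factors, averaged 114 ± 24.2 CPM in BD, 95.6 ± 22.2 CPM in NBD and 96.3 ± 9.75 CPM in control. MRPL27, which reaches towards the peptidyl transferase centre in bacteria, averaged 54.9 ± 10.6 CPM in BD, 49.7 ± 7.63 CPM in NBD and 41.6 ± 4.75 CPM in control. MRPS12, at the decoding centre, averaged 28.4 ± 6.66 CPM in BD, 23.6 ± 3.29 CPM in NBD and 26.0 ± 4.74 CPM in control. MRPL45, near the exit of the peptide tunnel, averaged 47.2 ± 7.96 CPM in BD, 42.6 ± 9.49 CPM in NBD and 41.5 ± 0.857 CPM in control. MRPL44, which resembles RNase III, averaged 43.9 ± 6.06 CPM in BD, 35.5 ± 6.24 CPM in NBD and 44.0 ± 6.82 CPM in control. In these genes the ranges of the groups overlapped, except that each BD library lay above each control library for MRPL27.

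MRPS18C takes the place of bacterial S18, and its paralogs MRPS18B and MRPS18A sit elsewhere, the one in the small and the other in the large subunit. MRPS18B averaged 96.8 ± 8.34 CPM in BD, 78.6 ± 8.48 CPM in NBD and 82.8 ± 5.57 CPM in control. MRPS18A averaged 58.7 ± 9.49 CPM in BD, 50.9 ± 9.95 CPM in NBD and 42.9 ± 12.9 CPM in control, and MRPS18C 24.5 ± 3.33 CPM in BD, 24.5 ± 5.55 CPM in NBD and 26.1 ± 1.91 CPM in control. Per kilobase of coding transcript, MRPS18B, MRPS18A and MRPS18C had 56.2, 55.0 and 37.6 CPM. MRPS18A and MRPS18C share 56.9% and 78.9% of exon bases with a gene on the opposite strand, and no source states whether counting used the strand. MRPS22 and MRPS30, proteins of mitochondrial ribosomes only, averaged 96.9 ± 12.5 and 81.1 ± 8.05 CPM in BD, 87.6 ± 20.1 and 68.0 ± 15.9 CPM in NBD, and 93.9 ± 6.61 and 85.9 ± 7.22 CPM in control. MRPS36 averaged 33.1 ± 6.53 CPM in BD, 32.05 ± 10.9 CPM in NBD and 24.3 ± 5.62 CPM in control.

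The genes moved together from library to library more than from group to group. For each gene the deviation of log2(CPM + 0.1) from its mean over the 9 libraries was taken. The median deviation was −0.08, 0.29 and 0.04 in BD replicates 1 to 3, −0.34, −0.07 and 0.19 in NBD replicates 1 to 3, and −0.09, 0.11 and −0.03 in control replicates 1 to 3. BD replicate 2 held the highest value of 35 of the 77 tested genes, and NBD replicate 1 the lowest value of 47. The 84 cytoplasmic ribosomal protein genes, which build the other ribosome of the cell, had median deviations of −0.31, 0.43 and 0.29 in BD, −0.75, −0.11 and 0.30 in NBD and −0.06, 0.15 and 0.02 in control. BD replicate 2 was thus the highest library and NBD replicate 1 the lowest for both kinds of ribosome, and the part of what sets these libraries apart was not tested. The balance of the subunits varied little, as summed CPM of large over small subunit genes was 1.96 ± 0.0207 in BD, 1.93 ± 0.0742 in NBD and 1.96 ± 0.0299 in control (SD, n = 3 each). Among the 71 genes above a mean of 10 CPM, the highest library was 1.86-fold above the lowest at the median, 1.29-fold for MRPL43 and 2.91-fold for MRPL55.

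**Figure D2:**
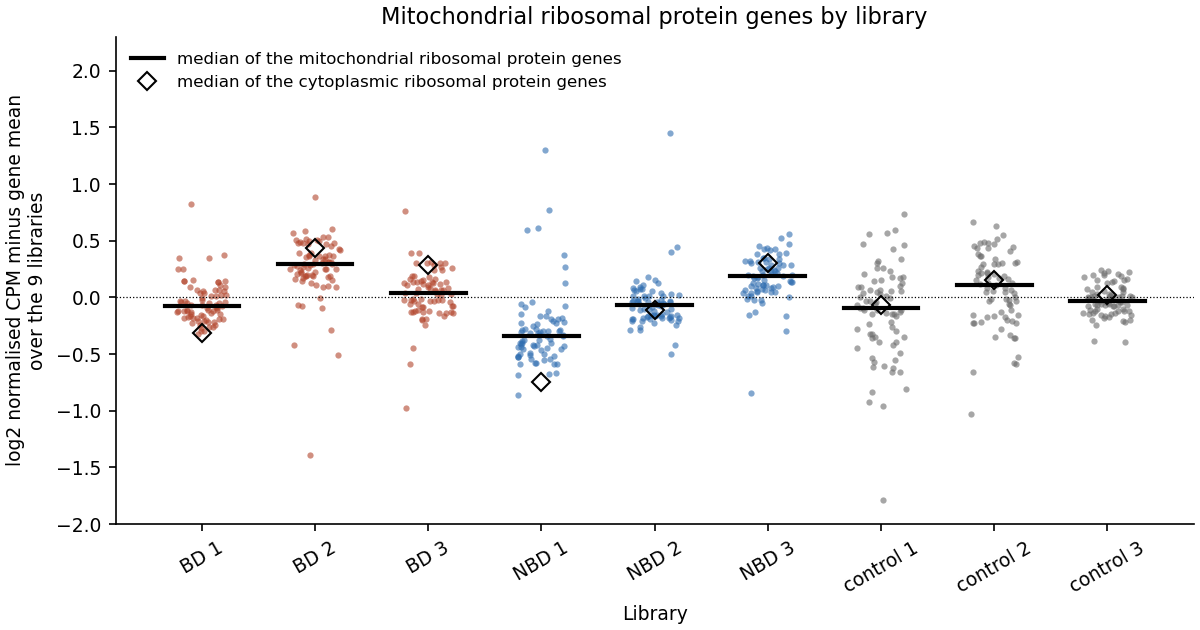
Log2 of normalised CPM + 0.1 minus the gene's mean over the 9 libraries, 1 point per tested gene (77) and library, with the median as a bar and the median of 84 cytoplasmic ribosomal protein genes as a diamond. The medians run from −0.34 in NBD replicate 1 to 0.29 in BD replicate 2, and libraries of 1 group differ as much as the groups do.

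Against NBD, the BD libraries held slightly more mRNA of most mitochondrial ribosomal protein genes, with no single gene called. The log2 fold change was above 0 for 67 of the 77 tested genes, against 48.4% of all 16921 genes tested, with a median of 0.17 over the 77 and −0.02 over all genes. By the quasi-likelihood test of edgeR, with p-values adjusted by Benjamini-Hochberg over all genes, 0 of the 77 were higher and 0 lower at an adjusted p under 0.05, and 0.0% of all genes were higher and 0.0177% lower. DESeq2 called 0 of the 77, against 0.0532% of all genes higher and 0.284% lower, and limma-voom called 0 of the 77, against 0.0% higher and 0.0295% lower. At an unadjusted p under 0.05, 3 of the 77 were lower and 0 higher, against 3.82% lower and 2.04% higher among all genes. Standard errors had a median of 0.22, so single differences of the size of the median could not be resolved. In bulk RNA, fewer cells of a type and less RNA per cell cannot be told apart.

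The median difference rested on 2 libraries. Without BD replicate 2 the median over the 77 genes was 0.04, with 55 above 0, and without NBD replicate 1 it was 0.06, with 50 above 0. Without NBD replicate 3 it was 0.33, with 71 above 0. All 4 subunit classes had like medians, at 0.17 and 0.17 for large subunit genes with and without a bacterial counterpart and 0.18 and 0.18 for small subunit genes with and without one. Genes with the YY1 letters in their promoter had a median of 0.18 (n = 13), and genes with a promoter but no match 0.17 (n = 55).

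MRPS5, a small subunit protein beside the channel where mRNA enters (GRCh38 chromosome 2, 95087207 to 95149434), ran against the rest. It stood at 9.17, 7.42 and 7.03 CPM in BD replicates 1 to 3, against 16.2, 14.4 and 10.9 CPM in NBD replicates 1 to 3. Every BD library lay below every NBD library. The log2 fold change was −0.81 ± 0.23 (SE), with an unadjusted p of 0.00502 and an adjusted p of 0.705 by edgeR, which ran from 0.140 to 1 over the alternatives. MRPS25, a small subunit protein of mitochondria only, stood at 19.7, 17.6 and 17.2 CPM in BD, against 40.3, 23.8 and 19.2 CPM in NBD, with a log2 fold change of −0.61 ± 0.26. Its groups overlapped and the NBD values were spread widely. MRPS6, a low gene that shares 31.9% of its exon bases with other genes on its strand, stood at 0.486, 0.157 and 0.241 CPM in BD, against 1.56, 1.74 and 0.275 CPM in NBD. Its log2 fold change was −1.99 ± 0.72, and NBD replicate 3 lay within the BD range. It rests on 4 to 42 counts per library.

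Among genes higher in BD, MRPL10 stood at 44.9, 59.3 and 53.6 CPM in BD, against 34.3, 42.5 and 41.8 CPM in NBD. Each BD library was above each NBD library, and the log2 fold change was 0.41 ± 0.19 (unadjusted p 0.0574, adjusted p 0.814 by edgeR). MRPS18B stood at 92.0, 106 and 92.1 CPM in BD, against 75.3, 72.3 and 88.3 CPM in NBD, again without overlap, with a log2 fold change of 0.30 ± 0.16. The groups overlapped for MRPL49, MRPL54 and MRPS17, at 0.41 ± 0.20, 0.41 ± 0.22 and 0.49 ± 0.26. MRPS17, a small subunit protein, had 9.37 ± 1.36 CPM in BD and 6.66 ± 1.87 CPM in NBD, and was the highest of the 77 log2 fold changes. On the lower side, MRPS21, which is known from bacteria to help the small subunit bind mRNA, had 64.7 ± 7.11 CPM in BD and 76.1 ± 13.1 CPM in NBD, and MRPL33 28.9 ± 4.22 CPM in BD and 31.0 ± 6.56 CPM in NBD. Groups did not overlap for 3 genes in the higher and 1 in the lower direction, MRPL4 being the other higher one. Among all genes the groups did not overlap for 7.19% and 7.36%.

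**Figure D3:**
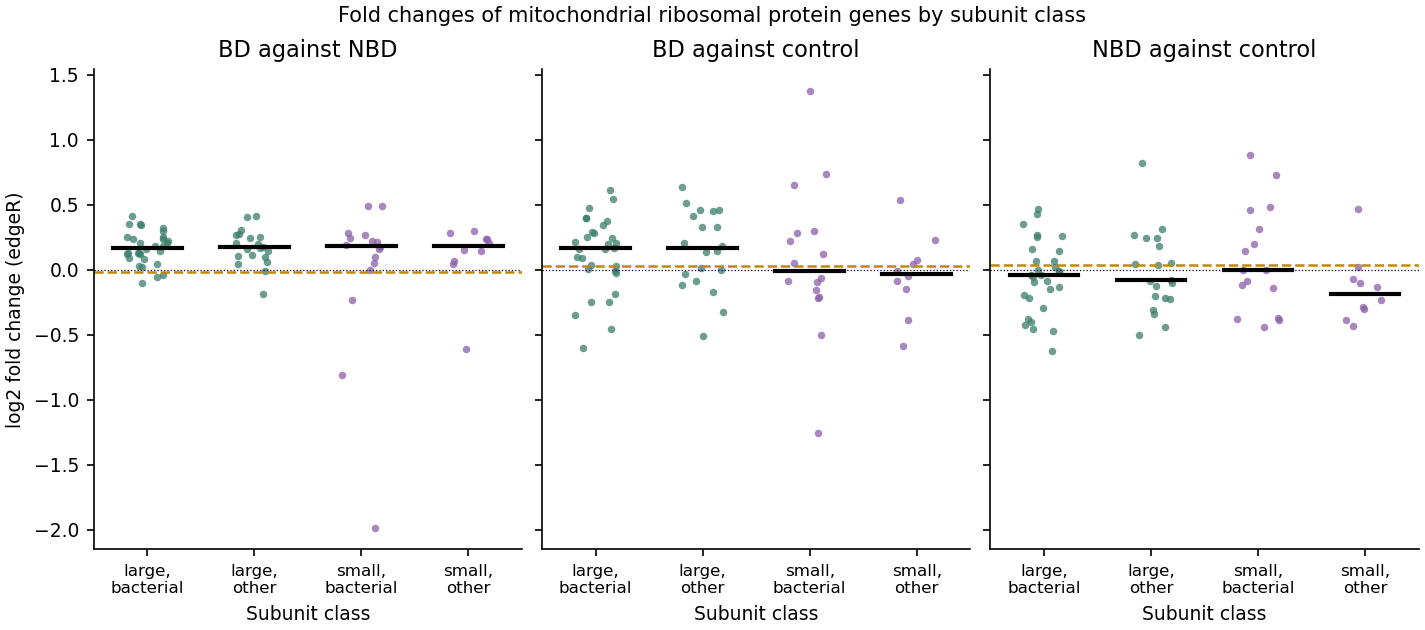
edgeR log2 fold changes of the tested genes by subunit class in the 3 comparisons, 1 point per gene, with class medians as bars and the median of all 16921 genes as a dashed line. Class medians of BD against NBD lie between 0.17 and 0.18, and the low point at −1.99 is MRPS6.

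The mRNAs that this ribosome translates differed more between the groups. The 13 mRNAs of the mitochondrial genome summed to 5258, 4171 and 4978 CPM in BD, against 8426, 9562 and 9727 CPM in NBD and 2924, 3020 and 5223 CPM in control. MT-CO3 and MT-CO1 made up most of each sum. MT-CO3 alone stood at 2671, 2069 and 2433 CPM in BD and 773, 842 and 2442 CPM in control. Between BD and control the sum therefore does not describe most of the 13. Against control, 10 of them lay lower in BD and 3 higher. Half-way in that order the log2 fold change was −0.49, whereas MT-CO3 had 0.82 ± 0.41. All 13 had a log2 fold change below 0 in BD against NBD, with a median of −1.80, and 3 of them fell past the test: MT-ND4 of complex I at −1.83 ± 0.20 (adjusted p 0.032), MT-ATP6 of ATP synthase at −2.04 ± 0.23 (adjusted p 0.032) and MT-CYB of complex III at −1.61 ± 0.20 (adjusted p 0.0457, all by edgeR). In that fit to all 9 libraries no other of the 16921 genes was called in BD against NBD. Without control replicate 3 the test called 7 of the 13 lower, among 16 calls over all 17755 genes tested. The summed nuclear ribosomal protein mRNAs of the control libraries were 4161, 4676 and 4114 CPM. Ribosomal protein mRNA per mitochondrial mRNA was thus 0.955 ± 0.245 in BD, 0.431 ± 0.0529 in NBD and 1.25 ± 0.408 in control (SD, n = 3 each). The ratio uses the summed mRNAs, so MT-CO3 and MT-CO1 weigh most in its mitochondrial part. NBD libraries, at 0.388 to 0.490, lay below all BD libraries (0.765 to 1.23) and all control libraries (0.788 to 1.55). The mitochondrial rRNA genes took 11.9 to 20.7% of counts in control, and without these genes in the fit the median of the 77 in BD against NBD was 0.19.

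**Figure D4:**
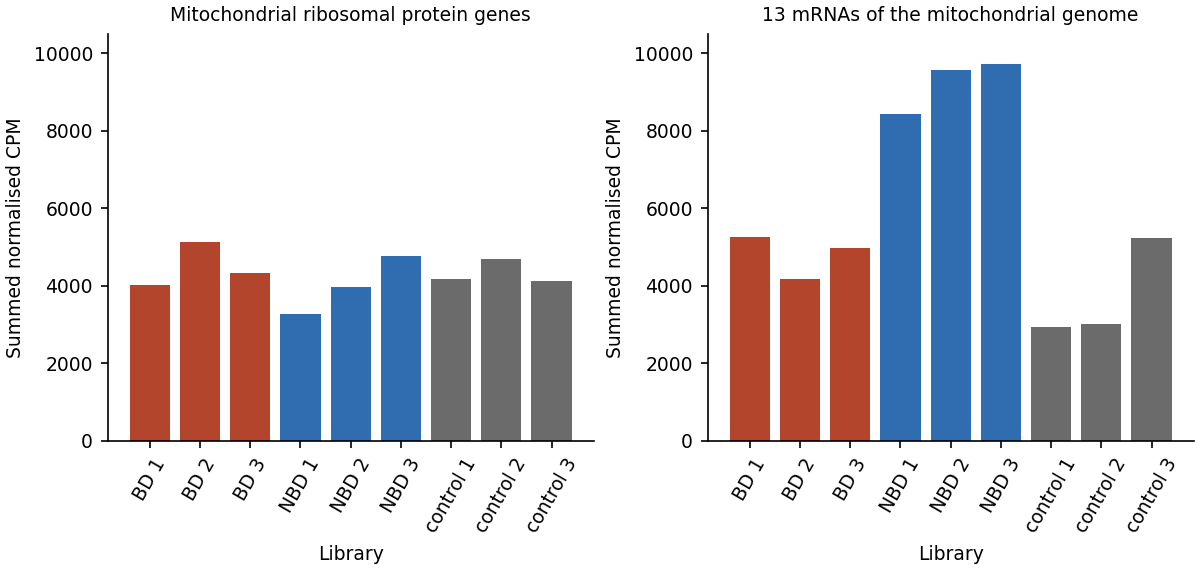
Summed normalised CPM of the 78 genes (left) and of the 13 mRNAs of the mitochondrial genome (right) in each library, on the same axis from 0. The right panel separates NBD (8426 to 9727) from BD and control, and the left panel does not.

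Against control, BD had no gene called either. Of the 77 genes 0 were higher and 0 lower at an adjusted p under 0.05 by edgeR, against 0.0% and 0.0% of all genes, and 0 by DESeq2 (0.0650% and 0.922% of all genes) and limma-voom (0.0% and 0.00591%). At an unadjusted p under 0.05, 6 were higher and 2 lower, against 4.73% and 9.06% of all genes. The log2 fold change was above 0 for 48 genes (51.9% of all genes), with a median of 0.12, and without BD replicate 2 for 38, with a median of −0.01. By class the medians were 0.16 and 0.17 for large subunit genes with and without a bacterial counterpart, and −0.01 and −0.03 for small subunit genes. In the same order they were 0.21, 0.15, −0.02 and −0.07 without control replicate 3. Where control replicate 3 alone stood for control they were 0.11, 0.18, 0.12 and 0.13, so the contrast of subunits depended on the control libraries used. In the fit to all 9 libraries MRPL41 and MRPL20, both of the large subunit, had log2 fold changes of 0.46 ± 0.20 and 0.48 ± 0.21, and MRPS25 and MRPS5 of −0.59 ± 0.26 and −0.50 ± 0.23. Groups did not overlap for 9 genes in the higher and 4 in the lower direction, against 8.05% and 7.72% of all genes.

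NBD against control gave the same count of calls: 0 of 77 higher and 0 lower, against 0.0% and 0.0% of all genes, and 0 by DESeq2 (0.0709% and 0.1% of all genes) and limma-voom (0.0% and 0.0%). At an unadjusted p under 0.05, 1 gene was lower and 0 higher, against 5.08% and 4.05% of all genes. The log2 fold change was above 0 for 30 genes (53.3% of all genes), with a median of −0.07. Without NBD replicate 1 the median was 0.07, with 48 above 0, and without NBD replicate 3 it was −0.21, with 21 above 0. MRPS2, a small subunit protein, had a log2 fold change of −0.37 ± 0.18. Groups did not overlap for 2 genes, MRPL12 at 0.46 ± 0.26 and the low gene MRPL38 at 0.82 ± 0.42, in the higher and 0 in the lower direction, against 4.67% and 3.75% of all genes. The comparisons of BD and of NBD with control share the control libraries.

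The control libraries also differed among themselves for some of these genes, and no test compared their share with that of all genes. Control replicates 1 and 2 lay both below the other 7 libraries for 12 of the 77 genes, or 15.6%, against 21.6% of all genes. They lay both above the other 7 for 9, or 11.7%, against 18.9%. Those below were MRPL12, MRPL20, MRPL24, MRPL38, MRPL46, MRPL55, MRPL58, MRPS11, MRPS18A, MRPS24, MRPS31 and MRPS7. Those above were MRPL13, MRPL19, MRPL3, MRPL30, MRPL42, MRPL51, MRPS16, MRPS28 and MRPS35. Each list holds genes of both subunits. MRPS11 and MRPL46, the pair that starts back to back, both stood below.

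MRPS7, a protein of the head of the small subunit (chromosome 17, 75261674 to 75266373), stood at 121, 153 and 116 CPM in BD, 96.5, 103 and 128 CPM in NBD, and 58.0, 67.7 and 108 CPM in control. Control replicate 3 lay within the NBD range and replicates 1 and 2 far below. Its log2 fold change in BD against control was 0.73 ± 0.25 (adjusted p 0.333 by edgeR). MRPS11, of the small subunit platform (chromosome 15, 88467453 to 88480773), stood at 62.3, 80.7 and 69.2 CPM in BD, 50.7, 58.5 and 76.4 CPM in NBD, and 31.7, 38.0 and 64.8 CPM in control. Again control replicate 3 sat among the sorted libraries, and the log2 fold change in BD against control was 0.66 ± 0.27. Its neighbour MRPL46 averaged 11.1 ± 1.95 CPM in BD, 10.7 ± 1.44 CPM in NBD and 8.83 ± 0.771 CPM in control.

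MRPS31 stood at 32.5, 45.0 and 45.5 CPM in BD, 28.6, 38.4 and 50.04 CPM in NBD, and 22.6, 21.98 and 39.8 CPM in control. MRPL55 stood at 39.8, 58.2 and 42.7 CPM in BD, 34.5, 42.5 and 47.0 CPM in NBD, and 20.03, 29.8 and 42.1 CPM in control. MRPL58, a peptidyl-tRNA hydrolase that rescues stalled ribosomes, stood at 38.0, 53.3 and 47.9 CPM in BD, 31.4, 38.0 and 51.8 CPM in NBD, and 25.9, 26.7 and 45.0 CPM in control. In these genes too the low control values were those of replicates 1 and 2. The low gene MRPS24, a small subunit protein at the mRNA entry, stood at 1.91, 2.83 and 2.58 CPM in BD, 1.63, 1.49 and 2.09 CPM in NBD, and 0.358, 0.673 and 1.73 CPM in control. Its log2 fold change was 1.38 ± 0.52 in BD against control and 0.89 ± 0.52 in NBD against control.

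MRPL30, of the large subunit (chromosome 2, 99181079 to 99197626), ran the other way. It stood at 53.2, 57.9 and 54.2 CPM in BD, 38.4, 54.4 and 69.8 CPM in NBD, and 91.4, 98.3 and 61.4 CPM in control. All BD libraries lay below all control libraries, and the log2 fold change was −0.60 ± 0.24 in BD against control and −0.63 ± 0.24 in NBD against control (adjusted p 0.345 and 0.539 by edgeR). MRPL51 stood at 88.7, 97.5 and 80.5 CPM in BD, 68.5, 81.0 and 97.1 CPM in NBD, and 123.1, 142 and 69.9 CPM in control. Its control replicate 3 was below every BD library. MRPL42 and MRPL19 had log2 fold changes of −0.51 ± 0.27 and −0.45 ± 0.24 in BD against control, and MRPL13 and MRPL23 of −0.47 ± 0.26 and −0.45 ± 0.24 in NBD against control.

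**Figure D5:**
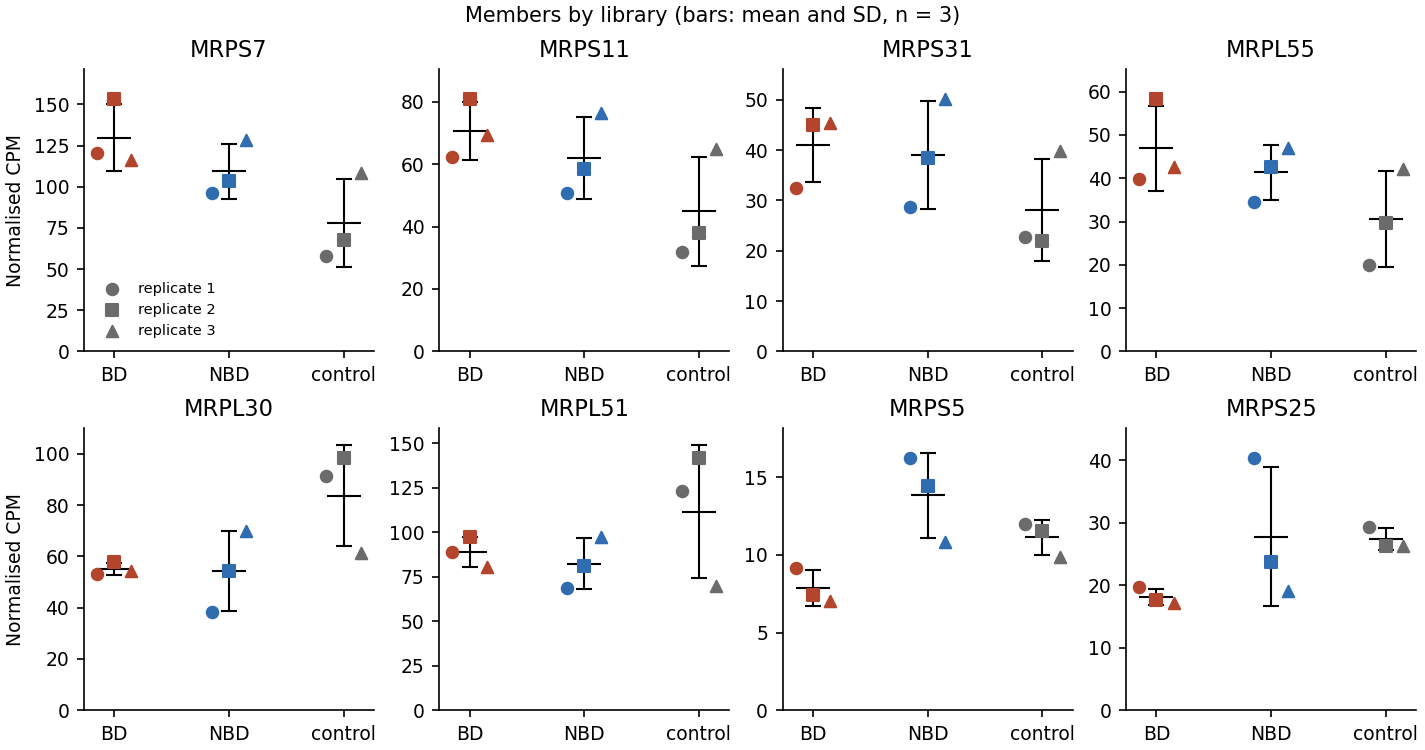
Normalised CPM of 8 genes in each library, with the mean and SD of each group (n = 3) and 1 marker shape per replicate number. For MRPS7, MRPS11, MRPS31 and MRPL55 control replicates 1 and 2 lie below the other libraries, for MRPL30 and MRPL51 above them, and for MRPS5 each BD library lies below each NBD and control library.

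Without control replicate 3, 17755 genes were tested and calls appeared. In BD against control 8 of the 77 genes were higher and 1 lower at an adjusted p under 0.05 by edgeR, against 13.8% and 10.5% of all genes. In NBD against control 4 were higher and 2 lower, against 11.6% and 6.56% of all genes. The genes higher in BD were MRPS7 at 1.06 ± 0.21 (adjusted p 0.00541), MRPS24 at 2.25 ± 0.45 (adjusted p 0.00574), MRPS11 at 1.03 ± 0.22 (adjusted p 0.0082), MRPL55 at 0.92 ± 0.25 (adjusted p 0.0212), MRPS31 at 0.89 ± 0.26 (adjusted p 0.0285), MRPL58 at 0.83 ± 0.24 (adjusted p 0.0301), MRPS18A at 0.73 ± 0.23 and MRPL10 at 0.58 ± 0.19. MRPL30 was lower at −0.77 ± 0.23 (adjusted p 0.0311). Over the alternatives run, the adjusted p of these genes reached 1. In NBD the genes called higher were MRPS7, MRPS11, MRPS24 and MRPS31, and those called lower were MRPL30 at −0.79 ± 0.23 and MRPL51 at −0.67 ± 0.19. When control replicate 3 alone stood for control, 0 of the 77 were called in either comparison by edgeR, against 0.0% of all genes, at adjusted p of 1 for each of these genes and with 0 and 0 at an unadjusted p under 0.05. MRPS7 then had log2 fold changes of 0.26 ± 0.29 in BD and 0.00482 ± 0.286 in NBD.

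Other parts of the mitochondrial translation system were not called either in the fit to all 9 libraries. Of 5 further mitochondrial ribosomal proteins with other symbols (DAP3, PTCD3, AURKAIP1, CHCHD1 and GADD45GIP1), 3 were above 0 in BD against NBD and 0 were called. AURKAIP1 had the largest log2 fold change of the 5, 0.44 ± 0.25, at 62.2, 87.5 and 63.5 CPM in BD, 50.7, 48.5 and 58.1 CPM in NBD and 33.01, 41.9 and 63.4 CPM in control. Of 31 assembly factors, 20 were above 0 in BD against NBD, with a median of 0.09, and TRUB2, a pseudouridine synthase, had a log2 fold change of 0.48 ± 0.17. Of 17 translation factors, 9 were above 0, with a median of 0.00333. TUFM, the mitochondrial elongation factor that delivers tRNA, stood at 386, 489 and 412 CPM in BD, 297, 281 and 306 CPM in NBD and 242, 309 and 382 CPM in control, and its BD libraries lay above all others. Of 22 aminoacyl-tRNA synthetases, 18 were above 0, with a median of 0.10, and PARS2 had 0.57 ± 0.22. Of 24 transcription and RNA processing genes, 12 were above 0, with a median of 0.00, and 0 were called. Against control and without control replicate 3, where 13.8% of all genes were called higher and 10.5% lower in BD, the calls in BD were 1 higher and 4 lower of 31 assembly factors, 4 higher and 1 lower of 17 translation factors, 1 higher of 22 synthetases and 5 lower of 24 transcription and RNA processing genes. Of the 5 proteins with other symbols AURKAIP1 was called higher, at 0.93 ± 0.22 (adjusted p 0.0108 by edgeR). In NBD, where 11.6% of all genes were called higher and 6.56% lower, the calls were 4 lower assembly factors, 4 higher translation factors and 3 lower transcription and RNA processing genes. In BD against control without control replicate 3, TFB1M, which methylates the rRNA of the small subunit, was lower at −0.87 ± 0.17 (adjusted p 0.00503). In the same comparison TACO1, an activator of MT-CO1 translation, was higher at 1.48 ± 0.32 (adjusted p 0.00772). PNPT1, an RNA degradation enzyme, was lower there at −1.11 ± 0.18 (adjusted p 0.00177, all by edgeR).

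Of 10 tested regulators of mitochondrial biogenesis, 4 were above 0 in BD against NBD, and 0 were called in any of the 3 comparisons in the fit to all 9 libraries. Without control replicate 3, GABPA, YY1 and PPRC1 were called lower in BD against control, 3 of 10 against 10.5% of all genes, and 0 were called in NBD against control. MYC, which drives ribosome and mitochondrial gene expression in many cells, stood at 242, 335 and 360 CPM in BD, 203, 212 and 211 CPM in NBD and 206, 240 and 292 CPM in control, with a log2 fold change of 0.58 ± 0.21 in BD against NBD. YY1 stood at 116, 104 and 102 CPM in BD, 105, 109.6 and 112 CPM in NBD and 155, 156 and 130 CPM in control. Every sorted library was below every control library, with log2 fold changes of −0.45 ± 0.15 in BD and −0.43 ± 0.15 in NBD against control (adjusted p 0.333 and 0.539 by edgeR). Without control replicate 3 they were −0.52 ± 0.16 in BD and −0.50 ± 0.16 in NBD (adjusted p 0.035 and 0.052 by edgeR). The 13 genes with the YY1 letters in their promoter had medians of 0.22 in BD against control and −0.07 in NBD against control, beside 0.12 and −0.08 for the 55 without a match.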

How the data were processed

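Read counts per gene were deposited by the authors for 9 libraries, with no normalization. The submitters' processing notes name STAR 2.7.11b, featureCounts, Trimmomatic 0.39, FastQC 0.74 and the build GRCh38. The annotation release, strand setting and handling of multi-mapped reads: not given in the sources used here. Symbols came from a gene name table, and types, coordinates and transcript lengths (median of basic coding transcripts) from GENCODE 29. Tests used edgeR 4.0.16 in R 4.3.3: filterByExpr, TMM, 1 quasi-likelihood fit over all 9 libraries with group as the only term, two-sided, Benjamini-Hochberg over all 16921 genes tested, and a call at an adjusted p under 0.05. Standard errors of edgeR values were derived as the absolute log2 fold change divided by the square root of the quasi-likelihood F statistic. The test was checked on simulated counts, where it seldom called changes up to 2-fold. Of 50 genes changed 2-fold it called 2 in BD against NBD, 5 in BD against control and 8 in NBD against control. Of 50 changed 4-fold it called 44, 41 and 45. A count of 0 calls therefore does not show that levels were equal. Libraries held 17128797 to 29512856 counts. Alternatives used DESeq2 1.42.0, limma-voom (limma 3.58.1) and the settings named in the closing section. The fit in which control replicate 3 stands alone for control takes its spread from the other groups and was chosen after seeing the data. Members and gene lists were chosen with earlier results of these data known. Genes named are the 5 with the lowest unadjusted p per direction and comparison, the 5 highest and lowest per kilobase, 15 fixed members, calls without control replicate 3, and up to 4 genes per list. MRPL46, the neighbour of MRPS11, MRPL4, MRPL43 and the genes listed with control replicates 1 and 2 outside the others were named after their values were seen. Promoters came from RefSeq (GRCh38.p14). Plots used matplotlib 3.10.9.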

Additional observations from a re-analysis of the deposited data

How the results depend on the processing

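The count of mitochondrial ribosomal protein genes called was 0 in each comparison under other size factors, no filter, a filter of 1 CPM in 3 libraries, DESeq2, limma-voom, the 6 libraries of the groups compared, protein-coding genes alone, without mitochondrial rRNA genes, with pseudogene counts added, with the length trend removed, and where control replicate 3 alone stood for control. Leaving out 1 library gave 0 to 0 calls in BD against NBD, 0 to 9 in BD against control and 0 to 6 in NBD against control, the highest without control replicate 3 in both.

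The replicate number as a block also gave 0, 0 and 0 calls, with 0, 0 and 0 among all 16921 genes. With the block 5, 16 and 6 of the 77 genes had an unadjusted p under 0.05, against 3, 8 and 1 without it (all by edgeR). The share of all genes at that threshold was not taken with the block. The rise can therefore not be read as one of these genes. Deviations of same-numbered libraries correlated at 0.62, 0.07 and 0.33 for BD with NBD, 0.25, 0.04 and 0.26 for BD with control and 0.03, 0.45 and 0.37 for NBD with control. All were above 0, but not every pair passed 0.1. Pairs with different numbers ran from −0.57 to 0.43. Each library enters several pairs, so these correlations are not independent of one another, and their signs alone do not show a pairing. Whether a number marks a shared culture or day is not stated and was not tested, and the main fit has no term for it. BD replicate 2 correlated best with NBD replicate 3, at 0.43.

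The median log2 fold change ranged from 0.04 to 0.33 in BD against NBD, −0.01 to 0.17 in BD against control and −0.21 to 0.07 in NBD against control when 1 library was left out, and from 0.15 to 0.19, 0.04 to 0.14 and −0.13 to −0.02 under the other settings. Of the named genes, MRPL33 in BD against NBD ran from −0.243 to 0.0728 with 1 library left out, the highest without NBD replicate 3. Where control replicate 3 alone stood for control, MRPL19 turned to 0.0509 in BD against control, and in NBD against control MRPL13 turned to 0.0366, MRPL51 to 0.22, MRPS11 to −0.0743, MRPS24 to −0.00621 and MRPS31 to −0.0365. The cause was not tested. Few counts were read for MRPL53, MRPS6 and MRPS24, so their values are uncertain, and the part of depth in this was not tested.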
